A study of Homo sapiens with 47 samples.

Results

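The miR-17 to miR-92a-1 cluster is a run of 6 microRNA (miRNA) hairpins in the non-coding host gene MIR17HG. The members described here were chosen by name and are 10 mature arms of those hairpins: hsa-miR-17-5p, hsa-miR-17-3p, hsa-miR-18a-5p, hsa-miR-18a-3p, hsa-miR-19a-3p, hsa-miR-19b-3p, hsa-miR-20a-5p, hsa-miR-20a-3p, hsa-miR-92a-3p and hsa-miR-92a-1-5p, written below without the prefix. All 10 were found among the 1006 miRNA entries of the count table, and all 10 passed the filter on low counts in both cell lines. The libraries are small RNA from PC-3 and 22Rv1, both human prostate cancer cell lines, kept for 24 h in hypoxia at 6 levels, namely without O2 (0%) and at 0.2, 0.5, 1, then 2 and 5% O2, and each level had its own normoxia control in 95% air. PC-3 comes from a bone metastasis, per the labels, and 22Rv1 from a subline of the xenograft CWR22R. Both lines were grown as cultures in RPMI-1640 medium with 10% fetal bovine serum, so neither group holds the other cells of a tumour. There were 24 PC-3 and 23 22Rv1 libraries, 2 in each group except for 22Rv1 normoxia at 0.2%, where 1 was used. Nothing in the labels tells whether libraries of a group came from separate cultures. The p-values therefore reflect only how far these libraries scatter, which may be technical.

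MIR17HG is transcribed as a single long RNA, from which Drosha and then Dicer cut each hairpin into a 5p and a 3p strand. One strand of a hairpin is usually loaded into Argonaute and kept, and the other, the passenger strand, is mostly degraded. The cluster is known as oncomiR-1, is driven by MYC and E2F factors, and is high in many tumours. Target choice rests mainly on the seed, bases 2 to 8 of the mature strand, and by seed the main arms fall into the miR-17, miR-18, miR-19 and miR-92 families. Textbook targets of the miR-17 family include E2F1 and CDKN1A.

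In RefSeq on GRCh38.p14, MIR17HG lies on the plus strand of chromosome 13 (chr13:91347687-91354577), and the 6 hairpins span 787 bases of it (chr13:91350605-91351391) in the order MIR17, MIR18A, MIR19A, MIR20A, MIR19B1, MIR92A1. All 10 members matched a RefSeq mature sequence and carry 8 distinct seeds. The main arm of each seed family and the passenger arms miR-92a-1-5p and miR-20a-3p, on which later results turn, are printed 5′ to 3′ with the seed in capitals, and arms with a shared seed stand together.
miR-17-5p: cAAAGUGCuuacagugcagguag
miR-20a-5p: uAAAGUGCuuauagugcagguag
miR-18a-5p: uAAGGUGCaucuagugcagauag
miR-19a-3p: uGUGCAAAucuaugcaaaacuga
miR-19b-3p: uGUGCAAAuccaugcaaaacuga
miR-92a-3p: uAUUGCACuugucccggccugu
miR-92a-1-5p: aGGUUGGGaucgguugcaaugcu
miR-20a-3p: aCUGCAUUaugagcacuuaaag
Over their 23 bases miR-17-5p and miR-20a-5p differ at 2 bases outside the seed, and miR-19a-3p and miR-19b-3p differ at 1. miR-17-5p also differs at 1 base from miR-106a-5p, an arm of the related cluster on chromosome X, and miR-18a-5p at 1 base from miR-18b-5p of that cluster, so counts of these pairs can be split between them. The mature miR-19b-3p and miR-92a-3p are made by a second hairpin each on chromosome X (MIR19B2 and MIR92A2) with the same sequence. Counts of those arms therefore cannot be assigned to chromosome 13 alone. Of the X cluster, miR-20b-5p had 1.34 to 4.49 CPM (a share of the library's miRNA counts, scaled within each line) over the PC-3 libraries and 103 to 254 CPM over the 22Rv1 libraries. miR-363-3p had 0 to 1.32 CPM in PC-3 and 261 to 391 CPM in 22Rv1. miR-106a-5p, the near copy of miR-17-5p, had 13.1 to 25.4 CPM in PC-3 and 61.7 to 107.6 CPM in 22Rv1. The X hairpins' share in the values of miR-19b-3p and miR-92a-3p was not tested.

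The libraries held 1742290 to 4327382 counts in PC-3 and 960421 to 3181344 in 22Rv1. The 10 members made up 2.76 to 3.71% of a PC-3 library and 2.33 to 2.96% of a 22Rv1 library. miR-210-3p, the standard hypoxia-induced miRNA, was higher in hypoxia in all 12 PC-3 pairs and all 11 22Rv1 pairs, by log2 0.70 ± 0.06 and 1.01 ± 0.07 (SE). Over hypoxia and normoxia libraries, the 5 epithelial marker miRNAs summed to 6152 to 8096 and 6492 to 8161 CPM in PC-3, and to 28980 to 64854 and 28287 to 66986 CPM in 22Rv1. Different markers made up the sum in each line. In PC-3 hypoxia the medians were 5306 CPM for miR-200b-3p, 1192.5 for miR-205-5p and 321.4 for miR-429, but 21.4 for miR-200c-3p and 8.43 for miR-141-3p. In 22Rv1 hypoxia they were 26475 CPM for miR-200c-3p and 14096 for miR-141-3p, but 70.2 for miR-200b-3p, 7.05 for miR-429 and 8.05 for miR-205-5p. The 5 stromal marker miRNAs summed to 21.8 to 1189 and 17.9 to 1267 CPM in PC-3, where the libraries at the top were both numbered 1 at the 5% level, and to 36.7 to 616 and 123 to 277 CPM in 22Rv1. The top values were mostly miR-143-3p, at up to 1161 and 1247 CPM in PC-3 and 577.9 and 249.1 CPM in 22Rv1. In PC-3 the rest of the list, miR-145-5p, miR-199a-3p, miR-133a-3p and miR-1-3p, each stayed at or below 13.33 and 7.88 CPM. Of the 5 blood miRNAs, 4 were in the table. They summed to 198.5 to 311.5 and 245.5 to 341.9 CPM in PC-3, and to 929.8 to 3193 and 1471 to 2859 CPM in 22Rv1. Most of that was miR-486-5p, at 194.6 to 308.2 and 244.1 to 339.7 CPM in PC-3 and 921.1 to 3184 and 1466 to 2858 CPM in 22Rv1. The 2 neuronal miRNAs summed to 252.5 to 456 and 263.1 to 521.3 CPM in PC-3, and to 395 to 708.1 and 508.8 to 744 CPM in 22Rv1, nearly all miR-9-5p. The defining blood miRNA, miR-451a, stayed at or below 1.56 and 1.18 CPM in PC-3 and at or below 6.22 and 7.03 CPM in 22Rv1, and the neuronal miR-124-3p at or below 0 and 0.307 CPM in PC-3 and 3.75 and 4.30 CPM in 22Rv1. On the first principal component 3 22Rv1 libraries stood apart, namely the first replicates of hypoxia 5%, normoxia 5% and hypoxia 0.5%. The part of these markers in the results was not tested. Selected values below are also given without those 3 libraries or without the 2 PC-3 libraries high in miR-143-3p. As these are bulk libraries, fewer cells of a type and less RNA per cell cannot be told apart, and CPM gives no amount per cell.

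In normoxia a single arm dominated the counts of the 10 members (CPM of both lines here scaled over all 47 libraries). miR-92a-3p averaged 31402 ± 1691 CPM in PC-3 (SD, n = 12) and 17883 ± 2165 CPM in 22Rv1 (SD, n = 11), and it took 83.7 ± 1.104% and 78.0 ± 2.65% of the counts of the 10 arms. Since MIR92A2 on chromosome X also makes miR-92a-3p, its counts cannot be assigned to MIR17HG alone. This order of levels compares arms of nearly equal length, and ligation of adapters can favour some sequences over others. Next in PC-3 came miR-17-5p at 2090 ± 85.2 CPM and miR-20a-5p at 2051 ± 184 CPM, whose ranges overlapped. In 22Rv1 miR-20a-5p stood second at 1965 ± 254 CPM followed by miR-17-5p at 1504 ± 167 CPM, again with overlapping ranges. miR-19b-3p followed in both lines, at 1067 ± 88.6 CPM in PC-3 and 773 ± 81.8 CPM in 22Rv1. Below it PC-3 had miR-19a-3p at 395 ± 33.8 CPM and then miR-18a-5p at 182 ± 16.2 CPM, with ranges apart. In 22Rv1 these neighbours overlapped, with miR-18a-5p at 275 ± 43.5 CPM and miR-19a-3p at 264 ± 37.1 CPM. The passenger arms were lowest in both lines, between 25.04 and 132.8 CPM on average, and the lowest in PC-3 was miR-92a-1-5p, at 38.9 ± 5.55 CPM. In 22Rv1 miR-92a-1-5p, at 25.59 ± 3.58 CPM, and miR-20a-3p, at 25.04 ± 7.05 CPM, were lowest with overlapping ranges.

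**Figure D1:**
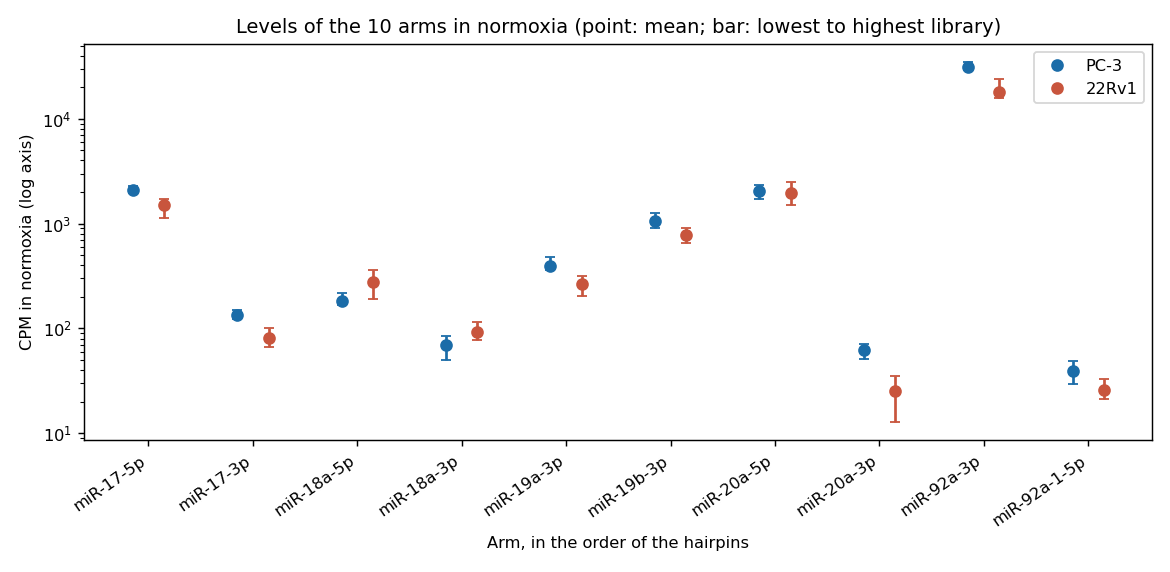
Levels of the 10 arms in normoxia, in CPM on a log axis, with PC-3 left of 22Rv1 for each arm. Points are means and bars run from the lowest to the highest library (12 PC-3 and 11 22Rv1 libraries). miR-92a-3p stands above all other arms in both lines, and both miR-18a arms have a higher mean in 22Rv1 than in PC-3.

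Between the lines, 7 of the 10 arms were higher and 2 lower in PC-3 than in 22Rv1 in normoxia (edgeR's quasi-likelihood test, Benjamini-Hochberg adjusted p below 0.05). Of the 613 miRNAs tested over both lines 86% were called, 39.6% higher and 46.3% lower, so the share of 9 members called is near the background. The largest difference was in miR-20a-3p, with 62.4 ± 6.20 CPM in PC-3 and 25.04 ± 7.05 CPM in 22Rv1 (log2 1.299 ± 0.13 SE, edgeR adjusted p = 1.369e-11). miR-92a-3p was higher by log2 0.81 ± 0.08 (edgeR adjusted p = 1.133e-11) and miR-17-3p by 0.72 ± 0.08 (edgeR adjusted p = 4.905e-11). Both arms of the MIR18A hairpin ran the other way, with 182 ± 16.2 CPM of miR-18a-5p in PC-3 and 275 ± 43.5 CPM in 22Rv1. The difference was log2 -0.59 ± 0.07 for miR-18a-5p and -0.43 ± 0.10 for miR-18a-3p (edgeR adjusted p = 1.392e-09 and 0.000196). miR-20a-5p was not called, at log2 0.06 ± 0.06. The median over the members was log2 0.53, against -0.15 over all miRNAs tested. The zero point of this comparison depends on the scaling: with library size alone the median of all miRNAs moved by log2 -0.45, miR-17-5p, miR-19a-3p, miR-19b-3p and miR-92a-1-5p were no longer called, and miR-20a-5p turned to -0.40 (edgeR adjusted p = 2.58e-06). With no filter on low counts miR-20a-5p was called higher, at 0.176 (edgeR adjusted p = 0.0172). Under every scaling tried, both miR-18a arms remained lower and miR-17-3p, miR-20a-3p and miR-92a-3p higher in PC-3.

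Averaged over the 6 O2 levels, miR-20a-5p and miR-92a-1-5p fell in hypoxia in both lines, and in 22Rv1 the 2 miR-19 arms rose. In PC-3 0 of the 10 members rose and 2 fell, where 11% of the 463 miRNAs tested were called, 5.83% higher and 5.18% lower. The PC-3 count of 0 higher was also 0 at an unadjusted p below 0.05 and 0 with DESeq2. In 22Rv1, 2 members rose and 2 fell, where 13.6% of 552 were called, 7.61% higher and 5.98% lower. The median log2 effect over the members was -0.09 in PC-3 and -0.08 in 22Rv1, beside -0.00443 and 0.0108 over all miRNAs tested. A block on each pair, a hypoxia and a normoxia library of the same level and replicate number, changed the members called. With this replicate block there were 0 higher and 4 lower in PC-3 and 2 higher and 4 lower in 22Rv1. Added in each line were miR-17-5p and miR-20a-3p. The block also called more of all miRNAs tested, 109 of 463 in PC-3 and 164 of 552 in 22Rv1.

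**Figure D2:**
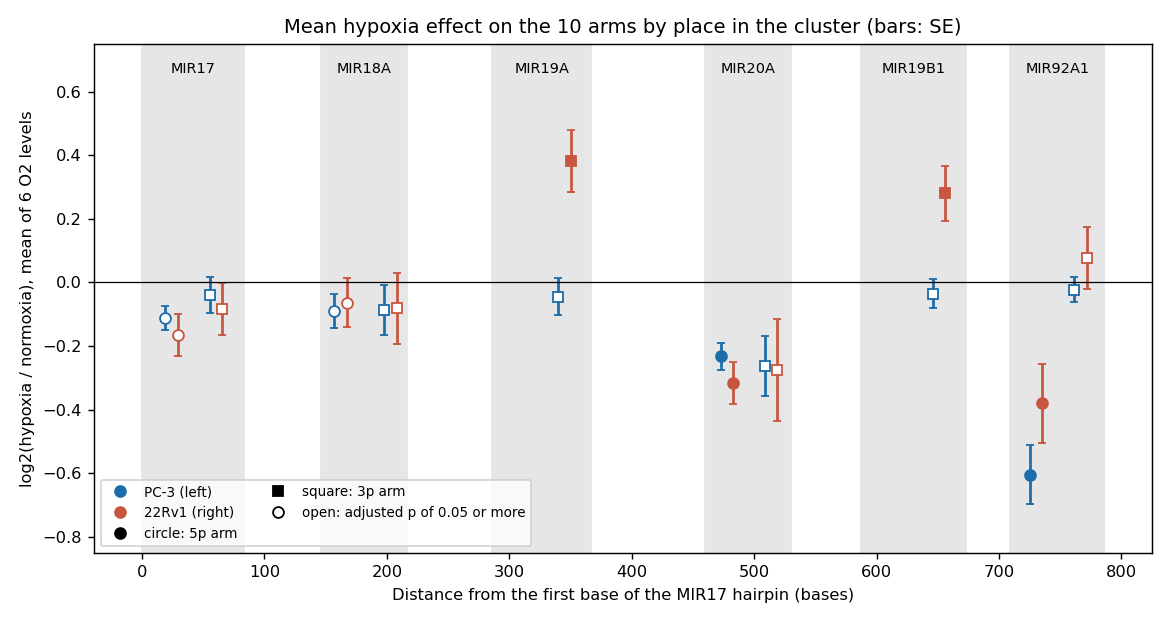
Mean hypoxia effect of each arm, as log2 of hypoxia over normoxia averaged over the 6 O2 levels with its SE, against the arm's distance in bases from the first base of the MIR17 hairpin. Grey bands are hairpins, circles 5p arms, squares 3p arms, and filled symbols have an adjusted p below 0.05. miR-20a-5p and miR-92a-1-5p lie below 0 in both lines, and miR-19a-3p and miR-19b-3p lie above 0 in 22Rv1 alone.

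miR-20a-5p, of the miR-17 seed family, had 1237, 1534 and 1698 CPM (lowest, median, highest) in 12 PC-3 hypoxia libraries, against 1468, 1763 and 2060 CPM in 12 normoxia libraries. In 22Rv1 it had 1599, 1848 and 2194 CPM in 12 hypoxia libraries, against 1856, 2278 and 3079 CPM in 11 normoxia libraries. The ranges overlapped in both lines, yet hypoxia was the lower of the pair in 10 of 12 PC-3 pairs and 10 of 11 22Rv1 pairs. The mean effect was log2 -0.23 ± 0.04 in PC-3 (edgeR adjusted p = 0.000393) and -0.32 ± 0.07 in 22Rv1 (edgeR adjusted p = 0.00253). Both calls held under all 8 alternative settings in each line and without any single library.

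miR-17-5p shares the seed of miR-20a-5p. It had 1503, 1673 and 1763 CPM in PC-3 hypoxia, against 1712, 1786 and 1999 CPM in PC-3 normoxia, and was lower in hypoxia in 12 of 12 pairs. In 22Rv1 it had 1347, 1597 and 1819 CPM in hypoxia, against 1320, 1782 and 2082 CPM in normoxia, lower in 9 of 11 pairs. The effects, log2 -0.11 ± 0.04 and -0.17 ± 0.07, missed the threshold (edgeR adjusted p = 0.0514 and 0.106). They passed it with the replicate block (adjusted p = 0.0117 in PC-3 and 0.0288 in 22Rv1) and with DESeq2 (0.012 and 0.0441). Within a library, log2 of miR-20a-5p over miR-17-5p averaged -0.15 ± 0.12 in hypoxia and -0.03 ± 0.09 in normoxia in PC-3 (SD), and 0.24 ± 0.15 in hypoxia and 0.38 ± 0.16 in normoxia in 22Rv1. It was lower in hypoxia in 10 of 12 PC-3 pairs and 9 of 11 22Rv1 pairs, a description with no test.

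The miR-19 arms share 1 seed and were the only members called higher in hypoxia, in 22Rv1. There miR-19a-3p had 312, 379 and 568 CPM in hypoxia, against 236, 313 and 368 CPM in normoxia, higher in 10 of 11 pairs. miR-19b-3p had 841, 1082 and 1542 CPM in 22Rv1 hypoxia, against 748, 905 and 1066 CPM in 22Rv1 normoxia, higher in 9 of 11 pairs. The ranges of the groups overlapped for both arms. The mean effects were log2 0.38 ± 0.10 for miR-19a-3p and 0.28 ± 0.09 for miR-19b-3p (edgeR adjusted p = 0.0102 and 0.0365). The miR-19a-3p call held without any single library and without the 3 libraries that stood apart (log2 0.38, adjusted p = 0.0239), but was lost with library size alone (0.105). The miR-19b-3p call is less secure: it held in 8 of 23 omissions of 1 library, with adjusted p = 0.0976 without the 0.2% normoxia library. It held in 4 of 8 alternative settings and was lost with library size alone (0.266), with the authors' factors (0.0549), with no filter on low counts (0.0562) and without the 3 libraries apart (0.052).

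In PC-3 neither arm was called. miR-19a-3p had 263, 332 and 371 CPM in hypoxia, against 307, 339 and 417 CPM in normoxia, with 6 of 12 pairs higher. miR-19b-3p had 799, 892 and 1002 CPM in hypoxia, against 781, 900 and 1105 CPM in normoxia, with 5 of 12 pairs higher. Their effects were log2 -0.04 ± 0.06 and -0.03 ± 0.05 (edgeR adjusted p = 0.746 and 0.744).

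The difference between the lines was tested as an interaction, PC-3 effect minus 22Rv1 effect. It was called for 1 member, miR-19a-3p, at log2 -0.44 ± 0.12 (edgeR adjusted p = 0.0327), where 2.94% of the 613 miRNAs tested were called, 0.489% higher and 2.45% lower. No member was called in the other direction, none had an unadjusted p below 0.05 there, and DESeq2 called 0 there. miR-19b-3p had a difference of -0.33 ± 0.10 (edgeR adjusted p = 0.0844, or 0.000791 with the replicate block). The miR-19a-3p call was kept in 3 of 9 alternative settings and in 15 of 47 omissions of 1 library. It was lost without the 3 22Rv1 libraries apart (log2 -0.41) and without the 2 PC-3 libraries high in miR-143-3p (-0.43). The call was also lost without the first 0.2% hypoxia library of 22Rv1 (-0.357). The effect on miR-20a-5p differed by 0.06 ± 0.09 (edgeR adjusted p = 0.879) and that on miR-92a-1-5p by -0.24 ± 0.15 (0.542), and values for the other 6 members ran from -0.12 to 0.03 without a call.

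miR-92a-1-5p, the passenger strand of the MIR92A1 hairpin, fell in both lines, and its partner arm was not called in either. It had 14.9, 22.4 and 35.2 CPM in PC-3 hypoxia, against 25.4, 33.6 and 43.1 CPM in PC-3 normoxia, lower in 11 of 12 pairs. In 22Rv1 it had 13.5, 23.1 and 32.2 CPM in hypoxia, against 24.4, 31.2 and 38.0 CPM in normoxia, lower in 9 of 11 pairs. The mean effect was log2 -0.60 ± 0.09 in PC-3 (edgeR adjusted p = 7.01e-05) and -0.38 ± 0.12 in 22Rv1 (edgeR adjusted p = 0.0457). The PC-3 call held under all 8 alternative settings and all 24 omissions of 1 library. The 22Rv1 call held in 8 of 23 omissions and in 5 of 8 alternative settings, and was lost with library size alone (adjusted p = 0.1085), with no filter on low counts (0.0561) and without the 3 libraries apart (0.103). The libraries held 34 to 128 counts of the arm in PC-3 and 18 to 127 in 22Rv1.

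The main strand, miR-92a-3p, had 23811, 27550 and 28720 CPM in PC-3 hypoxia, against 25293, 26855 and 29527 CPM in PC-3 normoxia. In 22Rv1 it had 15503, 21254 and 31365 CPM in hypoxia, against 18547, 20604 and 27942 CPM in normoxia. Its effects of log2 -0.02 ± 0.04 and 0.08 ± 0.10 were not called (edgeR adjusted p = 0.79 and 0.692). The highest 22Rv1 libraries, at 31365 and 29076 CPM in hypoxia and 27942 CPM in normoxia, were the 3 that stood apart. Without them the 22Rv1 effect was log2 0.0193 (edgeR adjusted p = 0.921).

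The ratio of the 5p to the 3p arm of a hairpin compares both strands in the same library and needs no scaling between libraries. For MIR92A1 the 3p counts can also come from MIR92A2 on chromosome X, so its ratio need not be that of 1 hairpin. For MIR92A1, log2 of miR-92a-1-5p over miR-92a-3p averaged -10.24 ± 0.36 in PC-3 hypoxia and -9.66 ± 0.21 in PC-3 normoxia (SD), lower in 10 of 12 pairs. In 22Rv1 it averaged -9.90 ± 0.53 in hypoxia and -9.44 ± 0.23 in normoxia, lower in 9 of 11 pairs. The ratio fell by log2 0.58 ± 0.09 (SE) in PC-3 (limma, adjusted p = 0.00126), where 12% of the 125 hairpins tested were called, 6.4% higher and 5.6% lower. In 22Rv1 the change was -0.46 ± 0.18 (limma, adjusted p = 0.118, or 0.0335 with the replicate block), and -0.34 without the 3 libraries apart (adjusted p = 0.172), with 11.3% of hairpins called, 6.38% higher and 4.96% lower. The other hairpins tested, MIR17, MIR18A, MIR19A and MIR20A, had ratio changes of -0.08 to 0.05 in PC-3 and -0.39 to 0.04 in 22Rv1 without a call. The MIR25 hairpin of the related chromosome 7 cluster, whose 3p arm carries the seed of miR-92a-3p, also had a lower ratio in hypoxia, by log2 -0.37 ± 0.07 in PC-3 and -0.49 ± 0.14 in 22Rv1 (limma, adjusted p = 0.002 and 0.0375).

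Between the lines in normoxia, the arm ratio of MIR20A was lower in PC-3 by log2 -1.27 ± 0.17 (limma, adjusted p = 3.83e-07), and that of MIR17 by -0.23 ± 0.07 (adjusted p = 0.0088, or 0.106 with the replicate block). In this comparison 57.1% of the 156 hairpins tested were called, 21.2% higher and 35.9% lower. The ratios of MIR18A, MIR19A and MIR92A1 differed by -0.16, 0.19 and -0.22 and were not called, though that of MIR92A1 was without the 3 22Rv1 libraries apart (-0.27, adjusted p = 0.0468). PC-3 had 2051 CPM of miR-20a-5p and 62.4 CPM of miR-20a-3p, while 22Rv1 had 1965 CPM and 25.04 CPM, close levels of the 5p arm and unequal levels of the 3p arm. The MIR92A1 ratio counts a 3p arm that MIR92A2 on chromosome X also makes. From the same X cluster, miR-363-3p had 0 to 1.32 CPM in PC-3 and 261 to 391 CPM in 22Rv1. The part of MIR92A2 in that ratio was not tested.

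The remaining members were not called in either line. miR-20a-3p had 32.2, 43.5 and 58.0 CPM in PC-3 hypoxia, against 44.6, 54.1 and 60.7 CPM in PC-3 normoxia, lower in 12 of 12 pairs. In 22Rv1 it had 13.88, 25.7 and 43.1 CPM in hypoxia, against 14.9, 30.8 and 40.4 CPM in normoxia, lower in 6 of 11 pairs. Its effects were log2 -0.26 ± 0.10 and -0.27 ± 0.16 (edgeR adjusted p = 0.0822 and 0.286, or 0.0068 and 0.00658 with the replicate block). The passenger arm miR-17-3p had 97.0 to 140 CPM in PC-3 hypoxia and 105 to 132 CPM in PC-3 normoxia, and 73.4 to 121 CPM in 22Rv1 hypoxia and 79.0 to 116 CPM in 22Rv1 normoxia. miR-18a-5p, the guide strand of the miR-18 family, had 125 to 165 CPM in PC-3 hypoxia and 140.6 to 185 CPM in normoxia, and in 22Rv1 230 to 348 CPM in hypoxia and 225 to 398 CPM in normoxia. miR-18a-3p lay between 46.0 and 66.8 CPM in PC-3 hypoxia and between 43.6 and 72.9 CPM in normoxia, and in 22Rv1 between 59.1 and 157 CPM in hypoxia and between 93.96 and 127 CPM in normoxia. The log2 effects of these 3 arms, in that order, were -0.04, -0.09 and -0.09 in PC-3 and -0.08, -0.06 and -0.08 in 22Rv1.

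**Figure D3:**
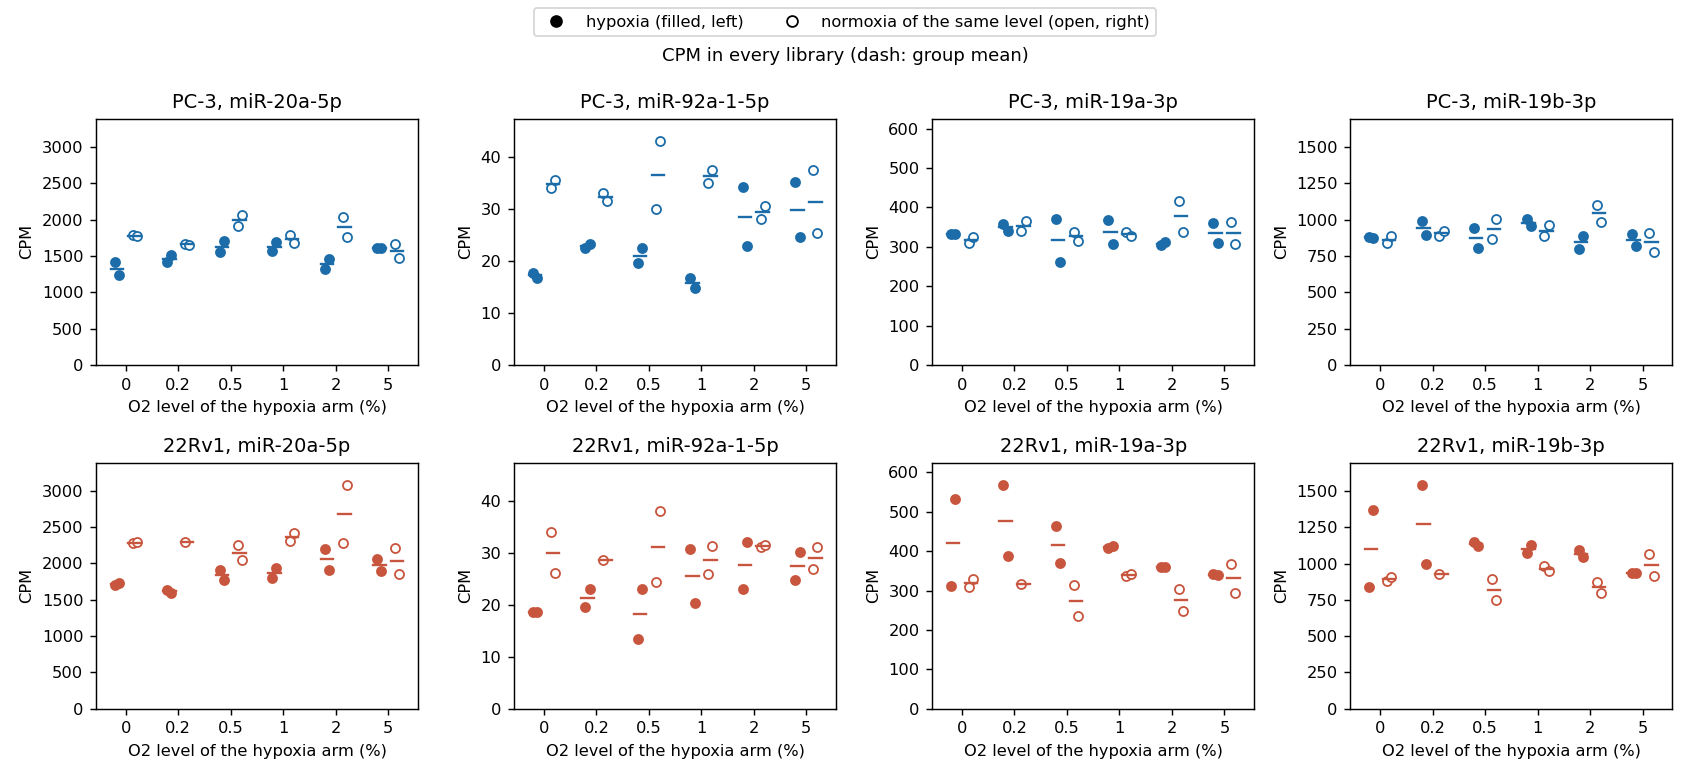
CPM of the 4 arms called in a line in every library by the O2 level of the hypoxia group (x axis, %), hypoxia filled and left, normoxia of the same level open and right, dashes for group means, PC-3 in the upper row. At 0% O2 miR-20a-5p and miR-92a-1-5p have both hypoxia libraries below both normoxia libraries in each line. How many of all miRNAs separate in this way was not counted.

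Level by level, 4 falls were called, all in PC-3. At 0% O2 miR-20a-5p had 1412 and 1237 CPM in PC-3 hypoxia, against 1782 and 1767 CPM in normoxia, and 1705 and 1736 CPM in 22Rv1 hypoxia, against 2278 and 2293 CPM in normoxia. At 5% O2 it had 1614 and 1607 CPM in PC-3 hypoxia, against 1662 and 1468 CPM in normoxia, and 2054 and 1891 CPM in 22Rv1 hypoxia, against 2207 and 1856 CPM in normoxia. The groups were apart at 0% in both lines and overlapped at 5% in both. Each group held 2 libraries, and how many of all miRNAs are apart in this way was not counted. In PC-3 the arm was called at 0% (log2 -0.42 ± 0.10, edgeR adjusted p = 0.0259) and at 2% (-0.45 ± 0.10, 0.0417), where it had 1316 and 1462 CPM in hypoxia, against 2031 and 1759 CPM in normoxia. The 0% call was lost on leaving out any 1 of the 4 libraries of that level (adjusted p of up to 0.277) and with no filter on low counts (0.0766). The 2% call was lost in 4 of 8 alternative settings and in 12 of 24 omissions, with an adjusted p of up to 0.566 without the first 2% normoxia library.

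miR-92a-1-5p at 0% O2 had 17.8 and 16.8 CPM in PC-3 hypoxia, against 34.1 and 35.7 CPM in normoxia. At 1% O2 it had 16.8 and 14.9 CPM in PC-3 hypoxia, against 35.1 and 37.6 CPM in normoxia. These were its 2 level calls in PC-3, at log2 -1.01 ± 0.23 and -1.19 ± 0.24 (edgeR adjusted p = 0.0241 and 0.0228), and each was lost on leaving out any 1 of the 4 libraries of its level (adjusted p of up to 0.208 and 0.215). At 2 and 5% O2 the PC-3 groups overlapped, with effects of log2 -0.06 and -0.07. In 22Rv1 the arm had 18.7 and 18.6 CPM in hypoxia at 0% O2, against 34.0 and 26.1 CPM in normoxia (log2 -0.69 ± 0.30, edgeR adjusted p = 0.268).

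For the miR-19 arms in 22Rv1, hypoxia libraries lay above normoxia libraries at 0.2, 0.5, 1 and 2% O2. The main fit called none of these level effects, and how many of all miRNAs separate in this way was not counted. At 0.5% miR-19a-3p had 464 and 370 CPM in hypoxia, against 313 and 236 CPM in normoxia (log2 0.60 ± 0.23, edgeR adjusted p = 0.15). At 0.2% it had 568 and 387 CPM in hypoxia, against 317 CPM in the single normoxia library (log2 0.59 ± 0.28, edgeR adjusted p = 0.722). At 0% its hypoxia libraries disagreed, at 312 and 532 CPM, against 308 and 330 CPM in normoxia. At 5% it had 342 and 339 CPM in hypoxia, against 368 and 295 CPM in normoxia. With the replicate block the values were log2 0.841 at 0.2% and 0.607 at 0.5% and were called (adjusted p = 0.0336 and 0.00776). The blocked 0.2% value rests on 1 hypoxia library against 1 normoxia library, since the second hypoxia library has no paired control. The block also called miR-19b-3p, miR-17-3p, miR-20a-3p and miR-92a-1-5p at 0.5% and miR-20a-3p at 0%.

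In all, 4 of 60 member-by-level tests were called in PC-3, all lower, beside 30 of 2778 over all miRNAs, where in level order 1.08, 1.51, 0.864, 0.216, 0.432 and 0% of miRNAs were called higher and 1.73, 0, 0, 0.432, 0.216 and 0% lower. In 22Rv1 edgeR called 0 of 60 member tests, beside 54 of 3312 over all miRNAs, where in level order 3.44, 0.725, 1.81, 0.725, 0.362 and 0% were called higher and 1.27, 0.181, 1.27, 0, 0 and 0% lower. At an unadjusted p below 0.05 there were 13 such tests in 22Rv1, 3 higher and 10 lower, and in PC-3 0 higher and 11 lower. The share of all miRNAs past that unadjusted threshold was not counted, so these counts have no background. DESeq2 also called 0 member tests in 22Rv1. In 22Rv1 the replicate block called 7 of 60 member tests, beside 206 of 3312 over all miRNAs. A linear trend over the ordered levels was called for 0 of 10 members in each line by edgeR and by DESeq2, with 0.216% of miRNAs called in PC-3 and 0.181% in 22Rv1. At an unadjusted p below 0.05 the trend of miR-92a-1-5p in PC-3 was the 1 found, at log2 -0.16 ± 0.05 per step toward lower O2 (edgeR adjusted p = 0.493). With the replicate block the trend of miR-20a-3p in 22Rv1 was called, at -0.27 per step (adjusted p = 0.0106), beside 17 of 552 miRNAs.

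**Figure D4:**
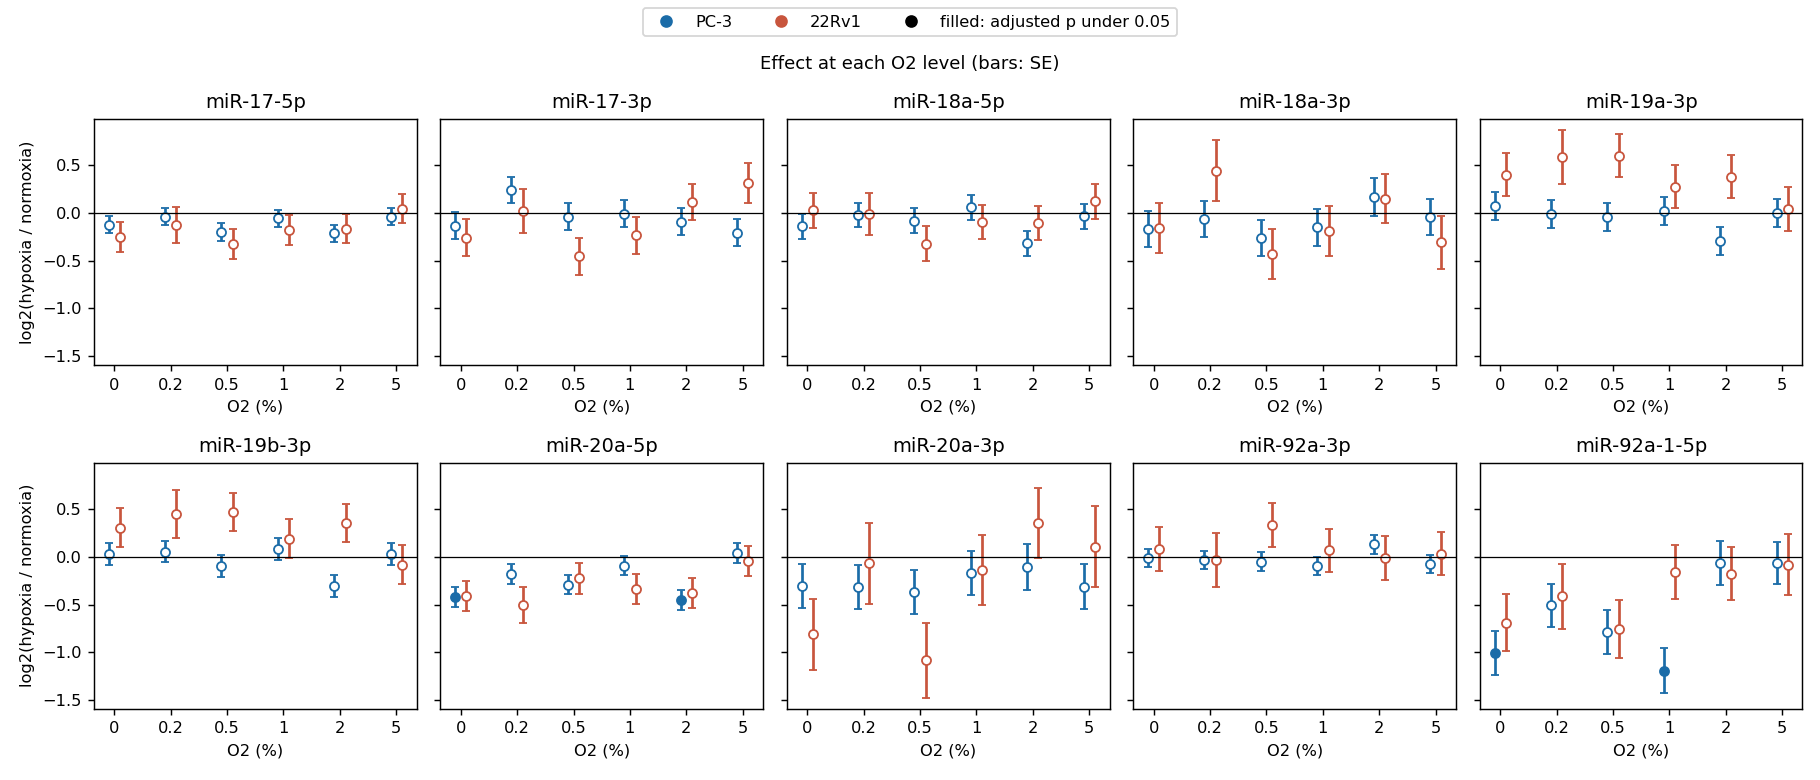
Effect of hypoxia on each arm by O2 level (x axis, %), as log2 of hypoxia over the normoxia control of that level with its SE, PC-3 left of 22Rv1, filled where the adjusted p is below 0.05. The 4 filled points are miR-20a-5p at 0 and 2% and miR-92a-1-5p at 0 and 1% in PC-3. At 5% O2 the effects of these 2 arms and of the miR-19 arms lie between -0.08 and 0.04 in both lines.

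The levels of the miR-19 seed arms relative to the miR-17 seed arms can be read within each library. Log2 of miR-19a-3p plus miR-19b-3p over miR-17-5p plus miR-20a-5p averaged -1.19 ± 0.28 in 22Rv1 hypoxia and -1.74 ± 0.25 in 22Rv1 normoxia (SD), higher in 10 of 11 pairs, and -1.19 ± 0.30 and -1.79 ± 0.21 without the 3 libraries apart. In PC-3 it averaged -1.37 ± 0.14 in hypoxia and -1.50 ± 0.10 in normoxia, higher in 10 of 12 pairs. The highest values were -0.55 in the first 0.2% hypoxia library of 22Rv1 and -0.81 in its second 0% hypoxia library. At 5% O2 the 22Rv1 ratios were -1.45 and -1.48 in hypoxia and -1.30 and -1.54 in normoxia. The arms of this ratio were chosen with their changes known, so it is a description with no test.

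**Figure D5:**
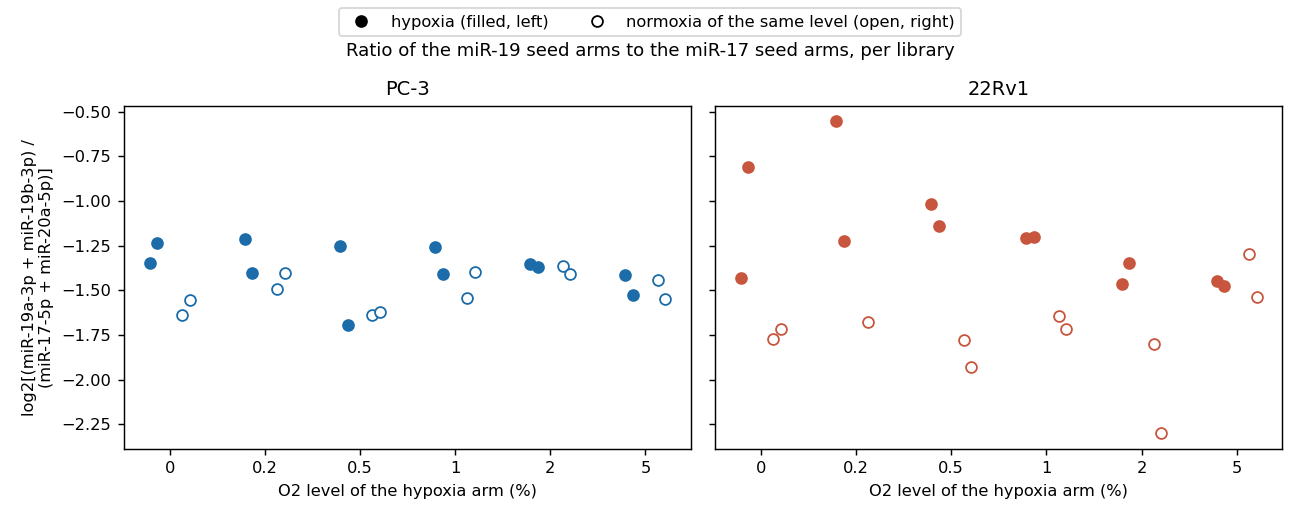
Log2 ratio of the summed counts of both miR-19 arms to those of miR-17-5p and miR-20a-5p in every library, by the O2 level of the hypoxia group (x axis, %), with hypoxia filled and left, and normoxia of the same level open and right. In 22Rv1 all hypoxia libraries from 0 to 2% O2 lie above the normoxia libraries of their level, and at 5% they overlap.

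The arms also differed in how they moved together over libraries. Over 23 22Rv1 libraries Pearson's r of log2 levels was 0.96 between miR-19a-3p and miR-19b-3p and 0.65 between miR-17-5p and miR-20a-5p, but -0.61 between miR-19a-3p and miR-20a-5p and -0.53 between miR-19a-3p and miR-17-5p. Without the 3 libraries apart (n = 20) they gave 0.96, 0.90, -0.62 and -0.55. Over 24 PC-3 libraries the same pairs gave 0.70, 0.84, 0.14 and 0.19. For miR-92a-3p and miR-18a-5p r was -0.33 in PC-3 and -0.82 in 22Rv1, or -0.50 without the 3 libraries apart, in which miR-92a-3p was highest. With miR-18a-3p, miR-20a-3p and miR-17-5p, r of miR-92a-3p was 0.44, 0.41 and 0.15 in PC-3, against -0.78, -0.66 and -0.68 in 22Rv1, or -0.53, -0.55 and -0.36 without the 3 libraries. Among other miRNAs of at least 20 CPM, the closest to miR-17-5p were miR-93-5p (r = 0.73), let-7f-1-3p (0.715) and miR-222-5p (0.69) in PC-3, and miR-1307-5p (0.87), miR-20b-5p (0.82) and miR-106a-5p (0.82) in 22Rv1. The closest to miR-19b-3p were miR-221-5p (0.57), miR-301a-3p (0.53) and miR-429 (0.53) in PC-3, and miR-196a-5p (0.78), miR-23a-3p (0.76) and miR-374b-5p (0.72) in 22Rv1. Without the 3 libraries the 22Rv1 values for miR-1307-5p, miR-20b-5p and miR-106a-5p were 0.774, 0.90 and 0.785. These values span both conditions and share library depth and scaling, and are given without a test. Only 1 base separates miR-19a-3p from miR-19b-3p, and 1 base separates miR-17-5p from miR-106a-5p. How reads matching more than 1 arm were counted is not given, and their part in r was not tested.

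For the miR-17 and miR-92 seeds, the members' share of the counts differed between the lines. Hairpins on chromosome X also make miR-19b-3p and miR-92a-3p, so counts of these 2 arms are not those of MIR17HG alone. The part of the X hairpins in the line difference was not tested. The miR-19 seed is carried by 2 entries, both of them members, so their share is 100% by definition. For the miR-18 seed the member share averaged 99.6% in PC-3 hypoxia and 99.7% in PC-3 normoxia, and 97.4% in 22Rv1 hypoxia and 97.3% in 22Rv1 normoxia. The miR-17 seed is carried by 6 entries, and miR-17-5p and miR-20a-5p gave 48.3 ± 0.80% of it in PC-3 hypoxia and 49.8 ± 1.46% in PC-3 normoxia, against 28.7 ± 0.90% in 22Rv1 hypoxia and 29.8 ± 1.17% in 22Rv1 normoxia. The rest was mostly miR-93-5p of the chromosome 7 cluster, with medians of 2986 CPM in hypoxia and 3182 CPM in normoxia in PC-3, and of 7573 CPM in hypoxia and 8628 CPM in normoxia in 22Rv1. Of 5 entries with the miR-92 seed, miR-92a-3p gave 57.6 ± 1.52% in PC-3 hypoxia and 58.0 ± 1.18% in PC-3 normoxia, and 30.0 ± 1.61% in 22Rv1 hypoxia and 28.1 ± 1.11% in 22Rv1 normoxia.

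The arms of the 2 related clusters, on chromosomes X and 7, and the remaining 2 arms of MIR17HG formed the comparison list. In hypoxia 0 of its 9 tested arms rose and 1 fell in PC-3, and 0 of 11 rose and 2 fell in 22Rv1. Over all miRNAs tested, 5.83% rose and 5.18% fell in PC-3 (11% in all), and 7.61% rose and 5.98% fell in 22Rv1 (13.6% in all). miR-25-5p, the passenger of MIR25, fell by log2 0.42 ± 0.06 in PC-3 and 0.50 ± 0.09 in 22Rv1 (edgeR adjusted p = 7.01e-05 and 0.000307). miR-20b-5p, of the miR-17 seed family, fell by log2 0.37 ± 0.09 in 22Rv1 (edgeR adjusted p = 0.00679), with 129 ± 14.3 CPM in hypoxia and 167 ± 32.6 CPM in normoxia. The medians over the list were log2 -0.10 in PC-3 and -0.12 in 22Rv1. In normoxia 10 of the 12 arms tested over both lines were lower in PC-3 than in 22Rv1, and the 2 that were higher, miR-19a-5p and miR-19b-1-5p, were the arms of MIR17HG. Of all 613 miRNAs tested, 46.3% were called lower and 39.6% higher.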

How the data were processed

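Small RNA libraries of PC-3 and 22Rv1 cells were made from total RNA with the miRNeasy and Illumina TruSeq Small RNA kits, with gel selection of fragments of miRNA size, per the labels' protocols. The submitters' processing notes name FastQC and hg19, and of the aligner and counter it can be said only that the sources used here do not give them. The authors deposited raw read counts per mature miRNA for 1006 entries in 47 libraries, and a second table of CPM, which was checked to equal the counts times 1 constant per library (largest relative difference 2.5e-09). Its factors were used as an alternative scaling.

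Counts were tested with edgeR 4.0.16 in R 4.3.3 (TMM scaling, robust quasi-likelihood, 1 mean per group, two-sided) on miRNAs reaching 5 CPM in 2 or more libraries, fitted over the whole table and adjusted by Benjamini-Hochberg, with calls at an adjusted p below 0.05. The mean effect is the mean of the 6 differences between a hypoxia group and its own control. The lone 22Rv1 library of the 0.2% control is assumed to vary like the others. CPM in hypoxia comparisons are scaled within a line, and those comparing lines in normoxia over all libraries. Arm ratios were tested with limma 3.58.1 on log2 of 5p over 3p counts with a pseudocount of 0.5, for hairpins with both arms listed under 1 precursor. DESeq2 1.42.0 served as an alternative. The tests were run on simulated data first. Sequences are RefSeq's on GRCh38.p14 and were matched by name, 868 of 1006 entries having one. No coordinates of the deposited files were used.

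Library totals ran from 960421 to 4327382 counts, which limits precision for arms of few counts. Counting error alone did not account for the spread of replicates (lowest chi-square over degrees of freedom 27.9), and 24 entries with identical counts included 0 members. Biological coefficients of variation came to 15.3% (PC-3) and 17.7% (22Rv1). Hypoxia and normoxia libraries with the same replicate number deviated together from their group means, with correlations of 0.302 to 0.858 in PC-3 and 0.108 to 0.642 in 22Rv1, the 0.2% level of 22Rv1 having no second control. With every correlation over 0.1 the numbers were taken to pair the libraries. The main fit has no term for the pairs, so its p-values and calls leave the pairing out. Results of a fit with each pair as a block, the replicate block, are given where they change a call. For the lines compared in normoxia, the block was instead the replicate number within each line. The 10 members, the marker lists and the related arms were chosen with earlier results of these data known. All 10 members are reported, other arms by count with those past the test named, miR-210-3p as the check of the hypoxia labels, and for miR-17-5p and miR-19b-3p the 3 other miRNAs with a mean of at least 20 CPM and the highest Pearson's r of log2(CPM + 1).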

Additional observations from a re-analysis of the deposited data

Results flagged for a closer look

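The effect of hypoxia on miR-19a-3p differed between the lines when the difference itself was tested, at log2 -0.44 ± 0.12 for PC-3 minus 22Rv1 (edgeR adjusted p = 0.0327 over 613 miRNAs). The arm was higher in hypoxia in 6 of 12 PC-3 pairs and in 10 of 11 22Rv1 pairs. The adjusted p ran from 3.61e-05 to 0.138 over 9 alternative settings and from 0.00216 to 0.169 over 47 omissions of 1 library.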

How the results depend on the processing

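The numbers of calls and 45 named values (the mean effects, the normoxia differences, 4 line differences, 4 PC-3 level calls and 7 arm ratios) were computed again with other scalings, filters and tests, with a replicate block and without each library. The other level effects, line differences and member trends were recomputed only as parts of those numbers of calls, the correlations and the ratio of the miR-19 to the miR-17 seed arms only under the added omissions below, and seed shares and the ratio of miR-20a-5p to miR-17-5p not at all. Other omissions, of 3 and of 2 libraries, were added after seeing the data: the 3 22Rv1 libraries apart on the first principal component, and the 2 PC-3 libraries of the 5% level numbered 1. Of the named values, direction changed in 15 of 1863 recomputations, 1 of them with a call. miR-20a-5p between the lines in normoxia, at log2 0.06, became -0.395 with library size alone (called), -0.116 with the filter of 20 CPM and -0.00271 without those PC-3 libraries, and -0.00719 to 0.074 over the omissions of 1 library. Its line difference, at 0.06, became -0.00555 with no filter and -0.00398 to 0.122 over omissions, and the PC-3 effect of miR-92a-3p ran from -0.0394 to 0.0038.

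The number of miRNAs called for the mean effect, 51 in PC-3 and 75 in 22Rv1, became 109 and 164 with the replicate block, and 46 in 22Rv1 with library size alone. The 18 calls of the line difference became 7 with library size alone, 11 with the filter of 20 CPM, 61 with the block and 9 without the 3 libraries. The 30 calls by level in PC-3 became 18 with library size alone and 18 with the authors' factors, and 136 with the block, and the 54 in 22Rv1 became 21 with library size alone and 206 with the block. The trend had 1 call in each line. In PC-3 it had 2 with the authors' factors, 3 with the block, and 0 with the filter of 20 CPM or without the 2 libraries. In 22Rv1 it had 0 with library size alone, 3 with the authors' factors, 4 with DESeq2, 2 with no filter, 2 with the filter of 20 CPM, 17 with the block and 2 without the 3 libraries. The 16 arm ratio calls in 22Rv1 became 4 with no filter on low counts. The causes were not tested. Beyond the changes given in the report, the block changed no other call of a member except miR-92a-1-5p at 0.5% O2 in PC-3 (adjusted p = 0.0234).

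Leaving out each library in turn gave 41 to 63 calls for PC-3, 51 to 103 for 22Rv1, 9 to 37 for the line difference, 512 to 534 for the lines in normoxia, 12 to 38 and 29 to 76 for the levels, 0 to 3 and 1 to 8 for the trends, and 14 to 18, 6 to 20 and 82 to 94 for the arm ratios. The line difference moved by over 1.5 times in 19 of 47 omissions, being lowest without the first 2% normoxia library of PC-3 and highest without the second 0.2% hypoxia library of 22Rv1. With 2 libraries a group, level tests have little power, and arms near 20 CPM rest on few counts in the smaller libraries.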
